A study of Danio rerio with 12 samples.

Results

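The comparison described here set zebrafish embryos labelled Mycn mutant against wild-type embryos of strain AB, both collected at 48 hours post fertilization (hpf). It rests on 6 RNA sequencing libraries out of 12 in the series, 3 mutant and 3 wild type, and on every gene of the count table that was read deeply enough to test, 19447 of 31465. The other 6 libraries, 3 mutant and 3 wild type at 72 hpf, serve below to compare the spread and the stage of the libraries, to look for genes held by a single group, and to set the differences at 48 hpf beside those at the later age. Per the labels the wild-type strain is AB, while the strain field of the mutant libraries holds only the genotype. The allele, the background of the mutant line, whether the mutants were homozygous, and how many embryos or clutches went into a library are not stated in the sources used here.

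The protein made from mycn is a Myc transcription factor, which binds DNA together with Max and is known for driving ribosome production, nucleotide synthesis and growth in dividing progenitor cells. Loss of 1 copy of its human counterpart MYCN causes Feingold syndrome 1, with malformed digits, small head size and narrowed or closed segments of gut. The series title names intestinal development and ribosome biogenesis, so the genes of protein synthesis and of the gut are described before the other tissues. At 48 hpf a zebrafish embryo is close to hatching and lives on yolk, with a beating heart, circulating embryonic blood, pigment cells in place and a gut and liver still forming.

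The labels call the tissue embryonic cells, and the libraries held the markers of a whole embryo. In CPM (counts scaled to the library total and the TMM factors of the 6 libraries), the muscle actin gene actc1b stood at 16320 to 20090 CPM in mutant-labelled and at 12820 to 25450 CPM in wild-type libraries. The neuronal gene elavl3 stood at 102.5 to 115.6 CPM against 86.9 to 109.4 CPM, and the globin gene hbae3 at 6218 to 8218 CPM against 6646 to 8369 CPM. Markers of liver and exocrine pancreas were low, with fabp10a at 0.427 to 0.758 CPM in mutant-labelled and 0.629 to 3.21 CPM in wild-type libraries, and prss1 at 1.12 to 1.39 CPM against 1.31 to 5.43 CPM. Library totals at this age lay between 15675394 and 19732340 counts.

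Replicates at 48 hpf were spread more widely than at 72 hpf, and the wild-type ones most. The biological coefficient of variation within a group was 0.133 in mutant-labelled and 0.185 in wild-type libraries at 48 hpf, against 0.0838 and 0.0701 at 72 hpf. The first principal component of the 6 libraries held 35.6% of the variance and separated the genotypes, with mutant-labelled libraries at -31.8, -29.2 and -25.1 and wild-type ones at 36.6, 31.7 and 17.7. The second held 24.4% and set wild-type replicate 2, at 32.7, apart from wild-type replicate 3, at -44.4. Of 50 gene lists, 32 varied over a wider range among the wild-type than among the mutant-labelled libraries. As the mean log2 CPM of a list centred per gene, sarcomere genes of skeletal muscle stood at -0.07, -0.06 and 0.20 in mutant-labelled replicates 1 to 3 and at -0.07, 0.33 and -0.33 in wild-type replicates 1 to 3. Along the step from 48 to 72 hpf, measured on 2887 genes that differed more than 4-fold between the ages, the genotypes overlapped, at 3.1%, 1.3% and -2.1% of the way in mutant-labelled and at -2.9%, -2.2% and 2.8% in wild-type libraries. The tests at 48 hpf below therefore take their spread from the 6 libraries of that age alone. The labels do not say that replicates came from separate clutches, so p-values measure the spread between these libraries, which may be technical.

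mycn RNA was higher in the mutant-labelled libraries. It stood at 178.5, 186.7 and 220.1 CPM in the mutant-labelled libraries and at 62.0, 79.3 and 53.6 CPM in the wild-type libraries. All 3 mutant-labelled libraries lay above all 3 wild-type ones (log2 fold change 1.59, SE 0.16, edgeR adjusted p = 0.00308). It was the 1 gene called among 20 tested genes of the Myc family and its partners, whose median log2 fold change was -0.004. The paralogs myca, mycb and mych and the partner gene max overlapped between the genotypes, with log2 fold changes of -0.01, 0.03, -0.22 and -0.11. Whether the mutant RNA makes a working protein cannot be read from these counts, and each direction below rests on the labels.

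In all, 74 of the 19447 tested genes (0.381%) differed between the genotypes at 48 hpf, 59 lower (0.303%) and 15 higher (0.0771%) in the mutant-labelled libraries (edgeR quasi-likelihood test, adjusted p under 0.05). The median log2 fold change of all tested genes was -0.003, with quartiles of -0.17 and 0.16. At an unadjusted p under 0.05 there were 1314 lower genes (6.76%) and 913 higher ones (4.69%). The mutant-labelled libraries all lay below the wild-type ones for 1805 genes (9.28%) and all above them for 1571 genes (8.08%), and list counts below are read against these shares. The count of called genes leaned on single libraries. It was 16, 20 and 18 without mutant-labelled replicates 1, 2 and 3, and 254 and 151 without wild-type replicates 2 and 3. It was 74 without wild-type replicate 1, where 45 of the same genes stayed called. A model of all 12 libraries, which lends the narrower spread of 72 hpf to these tests, called 641 genes (3.04%), among them all 74. Of these 422 were lower and 219 higher. DESeq2, which tested more genes than edgeR did, called 248 lower and 73 higher, and limma-voom called 49 lower and 9 higher. List counts from these fits are read against these totals, in which lower calls outnumbered higher ones. Of the 74, 28 carry only a clone or locus name and 12 stand on one of the gene lists.

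**Figure D1:**
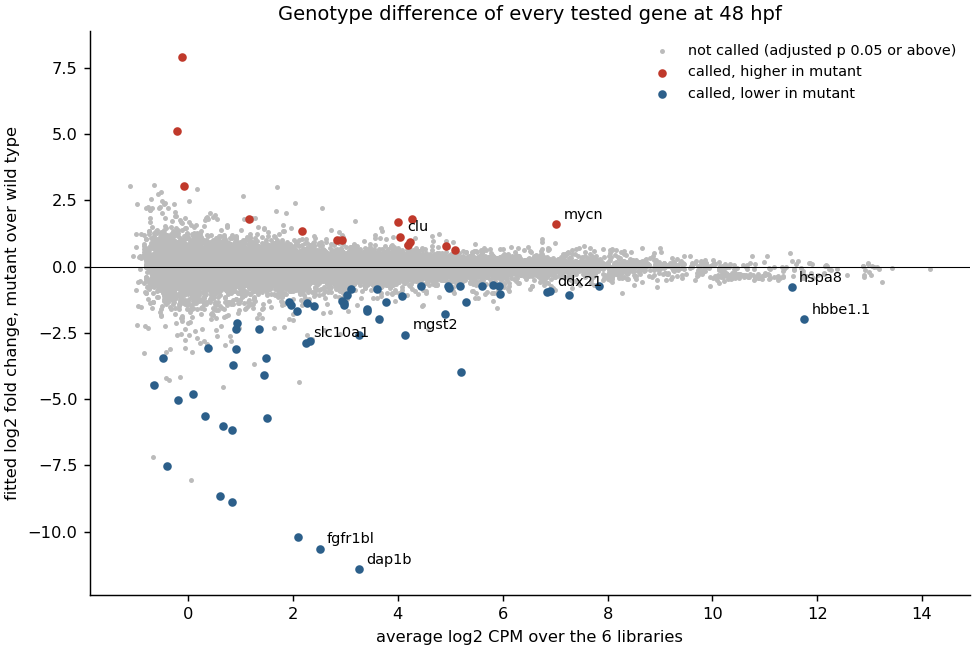
Fitted log2 fold change of mutant-labelled over wild-type libraries at 48 hpf (y axis) against the average log2 CPM over the 6 libraries (x axis), with a point for each of the 19447 tested genes. The 15 genes called higher and 59 called lower are coloured; the largest fitted falls, such as dap1b and fgfr1bl, belong to genes with 0 counts in the mutant-labelled libraries, for which the fitted size is no estimate.

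Nearly all genes of the cytosolic ribosome had slightly negative log2 fold changes, and edgeR called no single one. Among 84 tested ribosomal protein genes, 83 had a negative log2 fold change, with a median of -0.35 and a range of -0.64 to 0.15. In 79 of the 84 all mutant-labelled libraries lay below all wild-type ones, against 9.28% of all tested genes, and in 0 all lay above. edgeR called 0 of them, with 76 lower and 0 higher at an unadjusted p under 0.05 and a smallest adjusted p of 0.0813. limma-voom called 0 as well. DESeq2, which called 248 genes lower in all, called 6 of the 36 small subunit and 11 of the 48 large subunit genes lower. rpl12, a protein of the large subunit, stood at 1504, 1537 and 1382 CPM in mutant-labelled libraries and at 2007, 2086 and 2132 CPM in wild-type libraries (edgeR log2 fold change -0.49, SE 0.10, adjusted p = 0.0813). rps20, of the small subunit, stood at 1835, 1886 and 1736 CPM against 2472, 2430 and 2654 CPM (log2 fold change -0.47, SE 0.10, edgeR adjusted p = 0.0949). Neither gene overlapped between the genotypes, and both missed the threshold over all genes.

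Because these genes are so highly expressed, the difference showed in the make-up of the libraries. Ribosomal protein genes took 12.2%, 12.4% and 11.4% of all counts in the mutant-labelled libraries and 14.5%, 14.2% and 14.8% in the wild-type libraries. The shares averaged 12.01% ± 0.573 in mutant-labelled and 14.5% ± 0.326 in wild-type libraries (SD, n = 3 each) and did not overlap, with an exact two-sided permutation p of 0.1, the smallest that 3 against 3 libraries can give. The medians of the 2 subunits lay between -0.38 and -0.30 when any 1 library was left out, and were -0.26 for each under library totals, which moved the median of all genes to 0.09.

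Among genes that assemble the ribosome, ddx21 and rsl24d1 fell. Of 66 tested assembly factors of the large subunit, 2 fell, 0 rose and the median was -0.11. ddx21, an RNA helicase of the nucleolus that works in rRNA transcription and processing, stood at 79.5, 89.9 and 76.7 CPM in mutant-labelled libraries and at 149.8, 148.6 and 172.3 CPM in wild-type libraries. All mutant-labelled libraries lay below all wild-type ones (log2 fold change -0.94, SE 0.12, edgeR adjusted p = 0.011). rsl24d1, an assembly factor of the large subunit, stood at 172.0, 189.8 and 151.9 CPM against 250.2, 316.9 and 288.3 CPM (log2 fold change -0.74, SE 0.13, edgeR adjusted p = 0.0488). The call of ddx21 was lost without mutant-labelled replicate 1 or 3, and that of rsl24d1 without any mutant-labelled replicate or wild-type replicate 3 and under library totals. Losses named for single genes here and below cover left-out libraries, library totals, limma-voom and edgeR's robust fit only.

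The 55 tested assembly factors of the small subunit had a median of -0.11, with 0 called by edgeR and limma-voom, 1 called lower by DESeq2, and 7 lower and 0 higher at an unadjusted p under 0.05. The member with the smallest p was pno1, a factor of small subunit maturation, at 63.0 ± 6.19 CPM in mutant-labelled and 96.2 ± 2.63 CPM in wild-type libraries (SD, n = 3 each; log2 fold change -0.61, edgeR adjusted p = 0.0514). Core proteins of the small nucleolar ribonucleoproteins, which guide rRNA modification, had a median of -0.17 over 16 genes, and subunits of RNA polymerases I and III one of -0.14 over 33. In the ribonucleoprotein list 3 genes were lower and 2 higher at an unadjusted p under 0.05, and in the polymerase list 2 were lower. The gene of smallest p on the ribonucleoprotein list was ruvbl2, whose product helps assemble these particles and is not a core protein. ruvbl2 was higher, at 64.2 ± 7.6 CPM in mutant-labelled and 44.5 ± 3.6 CPM in wild-type libraries (SD, n = 3 each; log2 fold change 0.53, edgeR adjusted p = 0.126). edgeR and limma-voom called 0 genes of either list, and DESeq2 called 1 gene of the ribonucleoprotein list higher and 0 polymerase genes.

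Of 71 translation factors tested, 46 had a negative value, the median was -0.09, and 22 were lower and 6 higher at an unadjusted p under 0.05, against 6.76% and 4.69% of all genes. edgeR called 0, limma-voom 1 lower and DESeq2 8 lower and 1 higher. The lowest p belonged to eef1a1l1, the elongation factor that brings aminoacyl-tRNA to the ribosome, at 6963, 8294 and 7851 CPM in mutant-labelled libraries and 11580, 11530 and 11330 CPM in wild-type libraries (log2 fold change -0.58, SE 0.10, edgeR adjusted p = 0.0512). Its groups stood apart, and the value lay just past the threshold. The median of the list was -0.002 under library totals.

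In nucleotide synthesis 1 gene fell, and a few neighbours of the threshold pointed the same way. ppat, the enzyme of the committed step of purine synthesis, stood at 33.3, 38.4 and 38.3 CPM in mutant-labelled libraries and at 61.3, 57.7 and 63.2 CPM in wild-type libraries. The groups did not overlap (log2 fold change -0.73, SE 0.11, edgeR adjusted p = 0.0246), though the call was lost without any of the mutant-labelled replicates or wild-type replicate 1. Of 17 purine genes tested 1 was called and 6 were lower at an unadjusted p under 0.05, with a median of -0.16. Of 24 pyrimidine and deoxynucleotide genes edgeR and limma-voom called 0 and DESeq2 called 2 lower, with 5 lower and 1 higher at an unadjusted p under 0.05 and a median of -0.08, which was 0.006 under library totals. cad, whose product carries the first steps of pyrimidine synthesis, stood at 84.7 ± 8.26 CPM in mutant-labelled and 135.5 ± 14.4 CPM in wild-type libraries (SD, n = 3 each; log2 fold change -0.68, edgeR adjusted p = 0.0514).

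**Figure D2:**
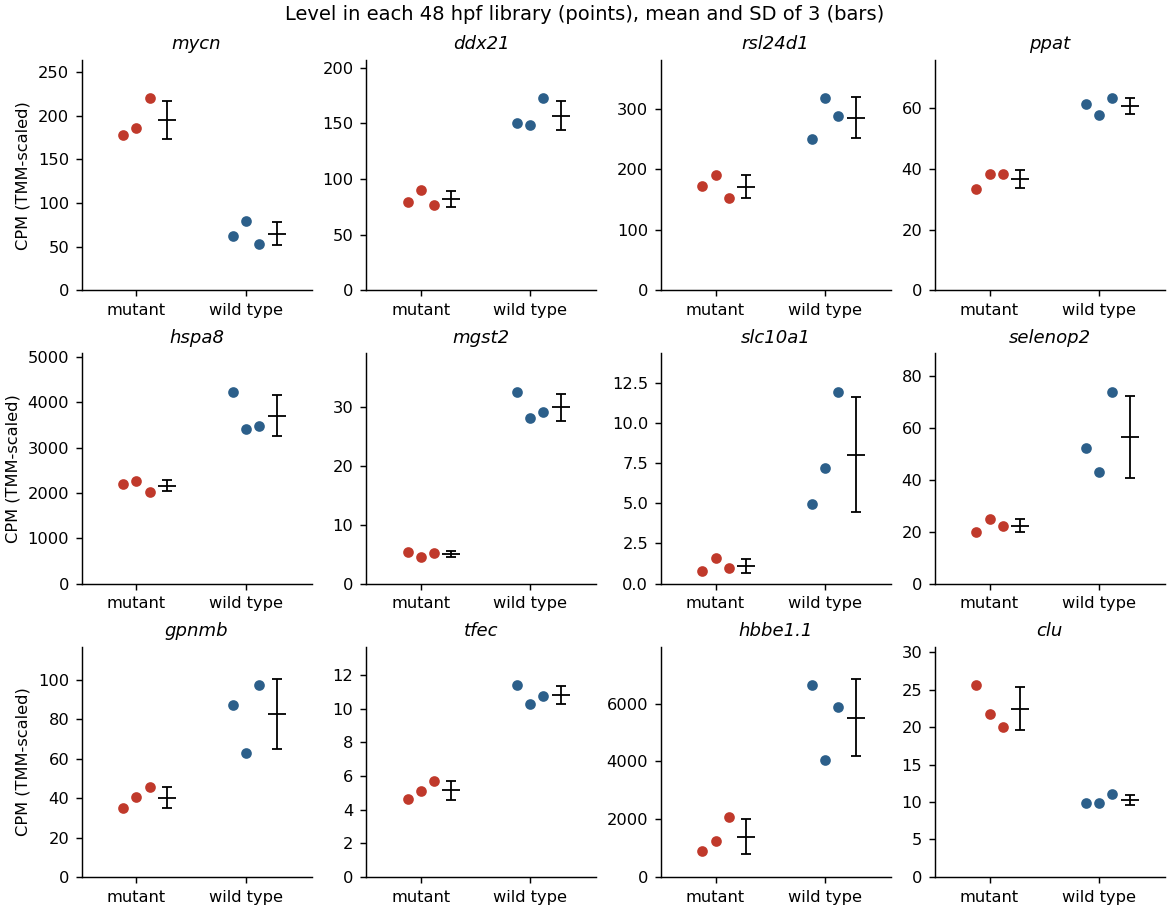
TMM-scaled CPM of 12 called genes in each 48 hpf library (points; mutant-labelled left, wild type right), with the mean and SD of 3 libraries beside them and each y axis starting at 0. For each of the 12 genes the mutant-labelled and wild-type points do not overlap; mycn and clu are higher and the other 10 are lower in the mutant-labelled libraries.

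The chaperone gene hspa8 was among the most abundant genes called. It encodes the constitutive cytosolic Hsp70, which folds newly made proteins, and stood at 2189, 2258 and 2023 CPM in mutant-labelled libraries and at 4231, 3408 and 3484 CPM in wild-type libraries. Every mutant-labelled library lay below every wild-type one (log2 fold change -0.78, SE 0.12, edgeR adjusted p = 0.0241), and the call was lost without any mutant-labelled replicate or wild-type replicate 1. It was the 1 called gene of 51 chaperones, which had a median of 0.02. Targets of p53 had a median of -0.05 over 28 genes, and edgeR and limma-voom called 0 of them, while DESeq2 called 1 lower and 2 were lower and 0 higher at an unadjusted p under 0.05.

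Called falls among enzymes, transporters and secreted proteins were scattered. The lists of glutathione transferases, P450 genes, hepatocyte genes and glycolysis and gluconeogenesis held 1 call each. The lists were not complete, and CYP27A1 (1 of many), a further P450 gene, was called lower outside them, as were ugt2a7 and sult1st7. Their log2 fold changes were -3.715, -3.102 and -4.825 (edgeR adjusted p = 0.011, 0.011 and 0.0131). Wild-type means were low, at 3.12, 3.13 and 1.81 CPM. The calls were kept in 13, 13 and 12 of the 16 alternatives that tested them. sult1st7 had 100 counts over the wild-type 48 hpf libraries. It had 3, 2 and 0 over the mutant-labelled 48 hpf, mutant-labelled 72 hpf and wild-type 72 hpf groups. It is thus among the genes described below as held by the wild-type 48 hpf libraries alone. CYP27A1 (1 of many) and ugt2a7 were also highest in those libraries, with 172 and 175 counts. mgst2, a microsomal glutathione transferase, stood at 5.33, 4.49 and 5.23 CPM in mutant-labelled libraries and at 32.6, 28.1 and 29.1 CPM in wild-type libraries. This was a wide and even separation (log2 fold change -2.57, SE 0.14, edgeR adjusted p = 3.66e-05), and it passed in every alternative. It was the 1 called gene of 41 glutathione transferases and related genes, whose median was -0.11. slc10a1, a bile acid transporter of hepatocytes in mammals, stood at 0.777, 1.58 and 0.961 CPM against 4.96, 7.21 and 11.9 CPM (log2 fold change -2.87, SE 0.38, edgeR adjusted p = 0.0131). Its wild-type libraries varied more than 2-fold, and the call was lost without mutant-labelled replicate 1 or 3 and in limma-voom.

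selenop2, a gene of selenoprotein P, the secreted selenium carrier, stood at 19.9, 24.8 and 22.2 CPM in mutant-labelled libraries and at 52.4, 42.9 and 73.9 CPM in wild-type libraries (log2 fold change -1.34, SE 0.19, edgeR adjusted p = 0.0179). pck1, the enzyme that commits carbon to making glucose, averaged 77.6 ± 14.96 CPM against 152 ± 24.9 CPM (SD, n = 3 each; edgeR log2 fold change -0.97, SE 0.16, adjusted p = 0.041). It was the 1 called gene of 43 in glycolysis and gluconeogenesis, with a list median of 0.02. The groups of both genes stood apart. pdk2b, a kinase that restrains pyruvate dehydrogenase, fell by 1.34 on the log2 scale, and adh8b, an alcohol dehydrogenase gene, fell by 1.08 (edgeR adjusted p = 0.045 and 0.0398). cyp2ad3, a cytochrome P450 gene that stands on both the P450 and the hepatocyte list, averaged 23.0 ± 2.104 CPM in mutant-labelled and 38.5 ± 3.57 CPM in wild-type libraries (SD, n = 3 each; log2 fold change -0.74, edgeR adjusted p = 0.0398). Calls of selenop2, pck1, pdk2b, adh8b and cyp2ad3 were each lost without any 1 of the mutant-labelled replicates, and those of pck1, pdk2b, adh8b and cyp2ad3 also without wild-type replicate 1 and under library totals. The call of pdk2b was lost without wild-type replicate 3 and in limma-voom as well.

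The hepatocyte list as a whole was lower in its median but overlapped between libraries. Of 55 tested genes 1 fell, 18 were lower and 0 higher at an unadjusted p under 0.05, and the median was -0.33. limma-voom called 1 of them, DESeq2 5 and edgeR on all 12 libraries 10, all lower. In whole embryos, fewer cells of a type and less RNA per cell cannot be told apart. On the centred scale the list stood at -0.22, -0.03 and -0.30 in mutant-labelled replicates and at 0.27, -0.10 and 0.39 in wild-type replicates, with wild-type replicate 2 under mutant-labelled replicate 2. The summed level of its genes ran from 9937 to 14210 CPM in mutant-labelled and from 12930 to 16420 CPM in wild-type libraries. The liver marker fabp10a reached only 0.758 and 3.21 CPM in them, so the list is not read as a measure of hepatocytes. Summed yolk and lipoprotein genes were likewise lowest in mutant-labelled replicate 3 (28750 CPM) and, among wild-type libraries, in replicate 2 (29240 CPM). Which cells made this RNA was not tested. Of the list's genes in the table, ahsg2 and hp had 0 counts in all 6 libraries. Genes of coagulation and complement, many of them also made by liver, had a median of -0.22 over 41, with 0 called by edgeR and limma-voom and 3 called lower by DESeq2. At an unadjusted p under 0.05, 10 of them were lower and 3 higher.

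Few genes of the forming gut passed any test at this age. Of 35 tested enterocyte genes edgeR and limma-voom called 0 and DESeq2 called 1 lower and 1 higher, with 3 lower and 2 higher at an unadjusted p under 0.05 and a median of -0.15. A further 23 of the 58 enterocyte genes in the table were read too thinly to test. alpi.2, an intestinal alkaline phosphatase, stood at 0.167, 0.126 and 0.214 CPM in mutant-labelled libraries and at 0.693, 1.602 and 2.70 CPM in wild-type libraries (log2 fold change -3.24, SE 0.62, edgeR adjusted p = 0.0629). The groups stood apart at a level of few counts. Transcription factors of the endoderm had a median of -0.15 over 27 genes, with 5 lower and 0 higher at an unadjusted p under 0.05 and 0 called by edgeR, DESeq2 and limma-voom. The gut regulator cdx1b averaged 1.06 ± 0.30 CPM against 2.47 ± 0.431 CPM (SD, n = 3 each; log2 fold change -1.22, edgeR adjusted p = 0.174). On the centred scale the endoderm list stood at -0.24, -0.08 and -0.03 in mutant-labelled and at 0.10, 0.18 and 0.07 in wild-type libraries, without overlap. Exocrine pancreas could be judged for 10 of 30 genes in the table, with a median of -0.11.

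Of the pigment cell genes tested, tfec and gpnmb fell. On the list of iridophores, the silvery cells that hold guanine crystals, and xanthophores, the yellow cells, 2 of 32 genes fell, 17 were lower and 0 higher at an unadjusted p under 0.05, and the median was -0.39, the lowest of the 50 lists. On this list limma-voom called 2 genes lower, and DESeq2 and edgeR on all 12 libraries 8 each. tfec, a transcription factor that specifies iridophores, stood at 4.61, 5.12 and 5.71 CPM in mutant-labelled libraries and averaged 10.8 ± 0.554 CPM in the 3 wild-type libraries (SD; log2 fold change -1.07, SE 0.16, edgeR adjusted p = 0.0223). gpnmb, a membrane glycoprotein gene of pigment cells and macrophages that stands on both pigment lists, stood at 34.8, 40.5 and 45.5 CPM against 87.4, 62.8 and 97.3 CPM (log2 fold change -1.03, SE 0.17, edgeR adjusted p = 0.0359). Both genes separated the genotypes, and each call was lost without any mutant-labelled replicate or wild-type replicate 1, that of gpnmb also under library totals. The summed level of the iridophore and xanthophore list ran from 3262 to 3944 CPM in mutant-labelled and from 4114 to 4962 CPM in wild-type libraries.

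Melanophore genes, of the black pigment cells, had a median of -0.31 over 23, with gpnmb the 1 called gene and 9 lower and 0 higher at an unadjusted p under 0.05. On the centred scale they overlapped, at -0.36, -0.15 and 0.01 in mutant-labelled and 0.22, 0.26 and 0.01 in wild-type libraries. gpnmb is also known from macrophages, and the myeloid list had a median of -0.15 over 26 genes, with 4 lower and 1 higher at an unadjusted p under 0.05. Its summed level ran from 2205 to 3327 CPM in mutant-labelled and from 1835 to 2851 CPM in wild-type libraries, and its part in the gpnmb difference was not tested. tcirg1a, a subunit of the proton pump of lysosomes and other acid compartments, stood at 4.37 ± 0.805 CPM in mutant-labelled and 10.7 ± 1.25 CPM in wild-type libraries (SD, n = 3 each; log2 fold change -1.29, edgeR adjusted p = 0.0196). That call was lost without mutant-labelled replicate 1 or 2.

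Embryonic blood contributed the most abundant called gene. hbbe1.1, an embryonic beta globin, stood at 900, 1230 and 2070 CPM in mutant-labelled libraries and at 6639, 4036 and 5887 CPM in wild-type libraries. The groups stood apart, though each spread widely (log2 fold change -1.98, SE 0.28, edgeR adjusted p = 0.0196), and the call was lost without mutant-labelled replicate 1 or 2 and in edgeR's robust fit. Its near-identical neighbours hbbe1.2 and hbbe1.3 had log2 fold changes of 0.20 and -0.19 and overlapped, so the assignment of reads among the copies is uncertain. Summed over the 3 copies, the level was 6535, 7204 and 7980 CPM in mutant-labelled and 14020, 9849 and 9916 CPM in wild-type libraries, again without overlap. The 12 tested globins had a median of -0.33 with 1 called, and the list overlapped between the genotypes because of wild-type replicate 3, at -0.32. Genes of heme synthesis and the erythroid lineage had a median of 0.05 over 34, with 2 lower and 1 higher at an unadjusted p under 0.05 and 0 called by edgeR, DESeq2 and limma-voom.

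On the list of the hatching gland, whose cells secrete the proteases that open the egg envelope, 1 gene of low level fell. hce2l2, named for a hatching enzyme, stood at 0.722, 0.190 and 0.374 CPM in mutant-labelled libraries and at 6.71, 4.98 and 2.96 CPM in wild-type libraries (log2 fold change -3.47, SE 0.46, edgeR adjusted p = 0.0131). The groups stood apart, and the call was lost without mutant-labelled replicate 2 or 3 and in limma-voom. It was the 1 called gene of 10 on the list, 4 of which were lower and 1 higher at an unadjusted p under 0.05. The summed level of the list overlapped, at 1566 to 2273 CPM in mutant-labelled and 1546 to 2700 CPM in wild-type libraries. epdl1, an ependymin-like gene, stood at 13.5 ± 4.80 CPM in mutant-labelled and 45.9 ± 13.7 CPM in wild-type libraries, and emilin3a, a gene of an extracellular matrix glycoprotein, at 4.96 ± 1.64 CPM against 15.9 ± 5.29 CPM (SD, n = 3 each; edgeR adjusted p = 0.0283 and 0.0372). Both calls were lost without any 1 of the mutant-labelled replicates, that of epdl1 also without wild-type replicate 1 and in the robust fit, and that of emilin3a also in limma-voom.

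Other falls of at least moderate level belonged to genes with less settled roles in the fish. tmem176l.3a, of a family of membrane protein genes, stood at 5.55, 4.87 and 4.64 CPM in mutant-labelled libraries and at 20.4, 15.7 and 22.6 CPM in wild-type libraries (log2 fold change -1.96, SE 0.18, edgeR adjusted p = 0.00181). znf1156, a zinc finger gene, stood at 4.16, 1.83 and 2.03 CPM against 16.4, 13.8 and 18.01 CPM (log2 fold change -2.58, SE 0.28, edgeR adjusted p = 0.00505). Neither overlapped between the genotypes, and both calls held in every alternative. ppm1h, a protein phosphatase gene, and tnfaip2b, of a family first known as induced by tumour necrosis factor, fell by 1.603 and 1.47 on the log2 scale (edgeR adjusted p = 0.011 and 0.0196). Their calls were lost without mutant-labelled replicate 2 or 3.

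Besides mycn, 14 genes were higher in the mutant-labelled libraries, and 6 of them had an average log2 CPM of at least 2, groups that did not overlap and a name other than a clone or locus. clu, the secreted chaperone clusterin, stood at 25.6, 21.7 and 20.1 CPM in mutant-labelled libraries and at 9.91, 9.84 and 11.1 CPM in wild-type libraries. This was the largest of the 6 (log2 fold change 1.13, SE 0.14, edgeR adjusted p = 0.011), and the call was lost without mutant-labelled replicate 1 or 2. plekha7b, of a protein at cell junctions, averaged 10.1 ± 0.987 CPM against 5.04 ± 0.668 CPM, and CCDC39, needed to build motile cilia, 9.41 ± 0.711 CPM against 4.75 ± 0.613 CPM (SD, n = 3 each; log2 fold changes of 1.00 and 0.99). asb15a, of an ankyrin repeat protein, rose by 0.93, lmf2b, of a lipase maturation factor, by 0.78, and cdnf, a neurotrophic factor of the endoplasmic reticulum, by 0.64 on the log2 scale. The edgeR adjusted p of these last 5 lay between 0.0398 and 0.0458, and each call was lost without any 1 of the mutant-labelled replicates and without wild-type replicate 3. Those of plekha7b, CCDC39, asb15a and cdnf were also lost without wild-type replicate 1, and those of plekha7b, CCDC39, lmf2b and cdnf in limma-voom.

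Several lists had positive medians with few or no called genes. Cholesterol and fatty acid synthesis had a median of 0.31 over 36 genes and did not overlap, at 0.26, 0.16 and 0.04 on the centred scale in mutant-labelled and -0.12, -0.32 and -0.02 in wild-type libraries. Of these genes edgeR and limma-voom called 0 and DESeq2 called 2 higher, and at an unadjusted p under 0.05 there were 12 higher and 0 lower genes. hmgcra, the rate-limiting reductase of cholesterol synthesis, stood at 7.83, 6.26 and 5.02 CPM in mutant-labelled libraries and at 2.98, 2.58 and 2.08 CPM in wild-type libraries (log2 fold change 1.32, SE 0.24, edgeR adjusted p = 0.0531). Its groups stood apart and it just missed the threshold.

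Lens genes had the highest median of the 50 lists, 0.45 over 44 genes, but their libraries overlapped, at 0.32, 0.52 and -0.13 in mutant-labelled and at -0.79, 0.09 and -0.01 in wild-type libraries. Of them edgeR and limma-voom called 0 and DESeq2 1 higher, and at an unadjusted p under 0.05 there were 10 higher and 0 lower genes. The median ran from 0.14 to 0.68 as single libraries were left out. Genes of differentiated neurons had a median of 0.25 over 65, with 15 higher and 0 lower before adjustment (p under 0.05), 0 called by edgeR and limma-voom and 1 called higher by DESeq2. They too overlapped, at 0.34, 0.16 and -0.10 in mutant-labelled and -0.29, -0.19 and 0.08 in wild-type libraries. Genes of mitosis had positive values in 59 of 62, a median of 0.22, and 13 higher and 1 lower before adjustment (p under 0.05), with 0 called by edgeR, DESeq2 and limma-voom. In that list mutant-labelled replicate 3 stood at 0.29, the other mutant-labelled libraries at 0.05 and -0.03, and the wild-type libraries at -0.02, -0.12 and -0.17.

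In all, 12 of the 50 lists kept the genotypes apart, 9 lower and 3 higher in the mutant-labelled libraries. Of all tested genes 17.4% did so, 9.28% lower and 8.08% higher. A list mean is not a single gene, and the count of lists alone is not read as a result. The 9 lower lists were both ribosomal subunits, translation factors, core nucleolar ribonucleoproteins, purine synthesis, endoderm transcription factors, iridophores and xanthophores, the hatching gland and p53 targets. Some were barely apart on the centred scale. The highest mutant-labelled and lowest wild-type values were -0.043 and -0.032 for the hatching gland, -0.008 and 0.014 for translation factors and -0.016 and 0.006 for p53 targets. For the small and large ribosomal subunits they were -0.092 and 0.159, and -0.099 and 0.153. The median of the p53 targets was near 0, at -0.05 here and with DESeq2 size factors and 0.03 under library totals. Whether the lists stay apart under other scalings was not tested. The 3 higher lists were cholesterol synthesis, the unfolded protein response, with a median of 0.12, and neural progenitors, with a median of 0.11. Muscle, heart, skin, vessels, lens, neurons and liver overlapped. For 22 of the 50 lists the sign of the median turned under library totals or when some library was left out, among them muscle, heart, skin, vessels, yolk genes, p53 targets and collagens, so the data give these no settled direction.

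**Figure D3:**
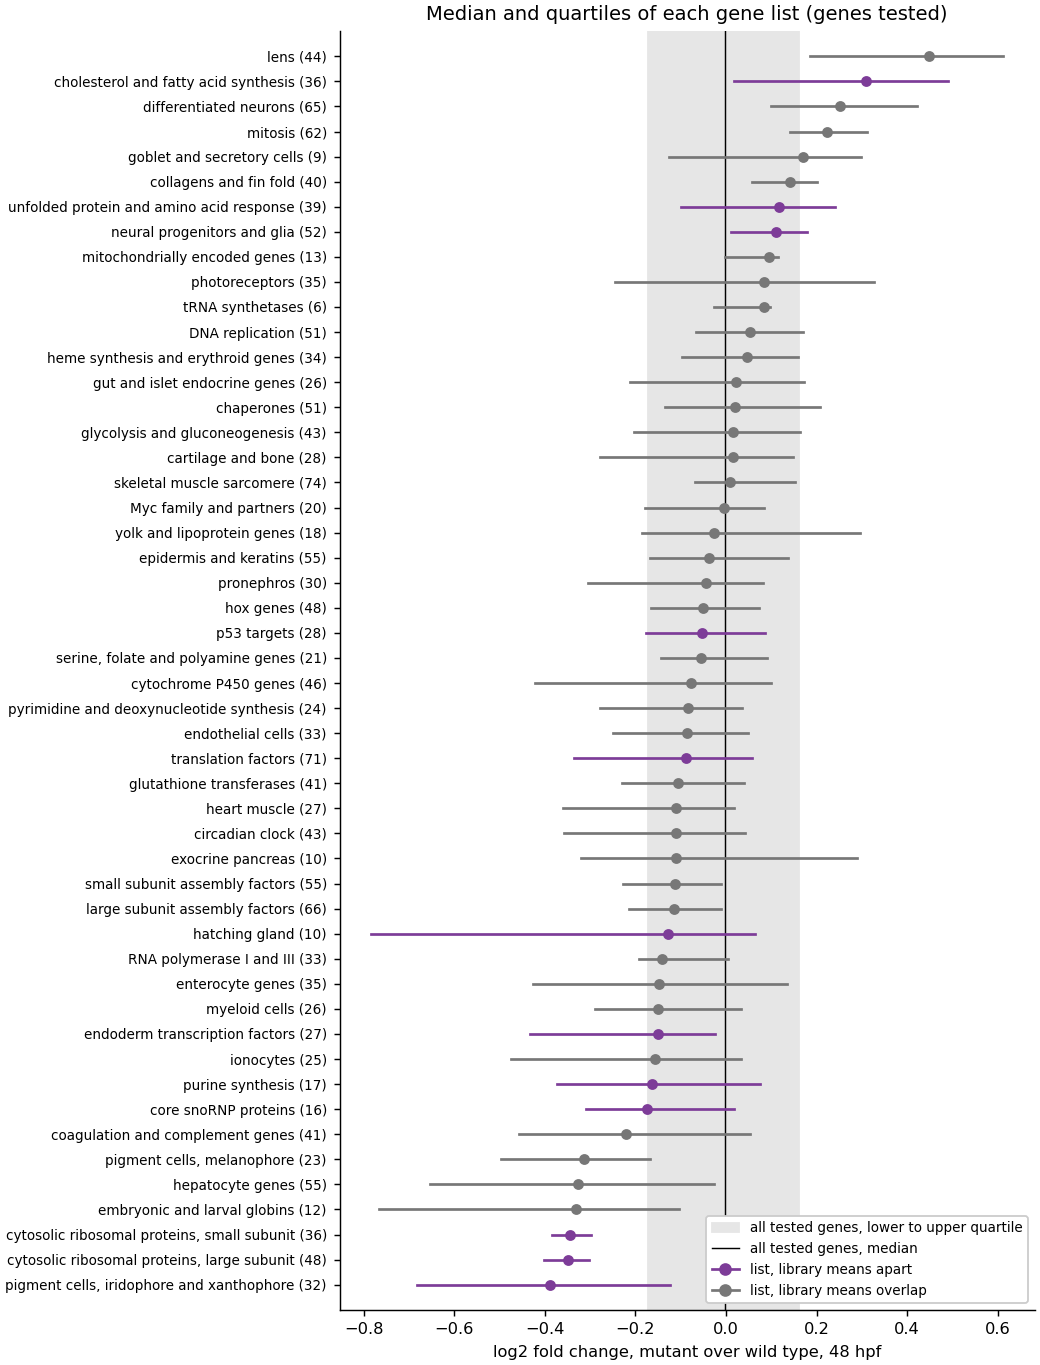
Median (point) and lower to upper quartile (line) of the log2 fold change of mutant-labelled over wild-type libraries at 48 hpf for each of the 50 gene lists, ordered by median, with the number of genes tested in parentheses and the quartiles of all tested genes as a grey band. Purple marks the 12 lists whose mean library values do not overlap between the genotypes; both ribosomal protein lists are narrow and lie near -0.35.

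The largest falls concerned genes with no counts at all in the mutant-labelled libraries. A gene with the symbol dap1b (ENSDARG00000109678) had 0 counts in every mutant-labelled library and 396, 344 and 307 counts in the wild-type libraries, at least 330.5-fold lower against a floor of 3 counts over the group. fgfr1bl (ENSDARG00000104015), named for a fibroblast growth factor receptor, had 0 counts against 147, 150 and 323 and was at least 195.7-fold lower. si:dkey-19a16.7, CR352226.5 and si:ch73-213k20.5 also had 0 counts against 460, 155 and 70 over the wild-type libraries, at least 145-fold, 48.9-fold and 22.1-fold lower. These 5 genes were all called by edgeR, and the calls of dap1b, fgfr1bl and si:dkey-19a16.7 held in every alternative. Another gene with the symbol dap1b stood at 59.0 ± 7.46 CPM in mutant-labelled and 63.0 ± 8.93 CPM in wild-type libraries (SD, n = 3 each) and overlapped. Whether reads were divided between the copies was not tested.

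Those 5 genes were also nearly or wholly absent at 72 hpf, in both genotypes. dap1b had 1 count over the mutant-labelled and 3 over the wild-type 72 hpf libraries, and the other 4 had 0 in all 6. Across the table, 13 genes held at least 10 counts in each wild-type 48 hpf library and at most 3 counts over each of the other 3 groups, and 8 of the 13 were called. The rule itself asks for a wide gap between the genotypes at 48 hpf, so those 8 calls largely follow from it. The same search found 0 genes held by the mutant-labelled 48 hpf libraries alone, 0 by the mutant-labelled 72 hpf libraries and 0 by the wild-type 72 hpf libraries. Between the genotypes at 72 hpf, 0 genes had at least 10 counts in each library of 1 genotype and at most 3 over the other. So wild-type embryos of strain AB at 72 hpf had next to none of these transcripts, as the mutant-labelled ones did, and for these 13 genes genotype cannot be told apart from whatever else set the 3 wild-type 48 hpf libraries off from the other 9. With the 13 left out of the count of calls, 66 remained, 51 lower and 15 higher, with the number of genes tested unchanged. The cutoff of 3 counts does not bound this limit. Outside the 13, si:dkey-22i16.9 had 295 counts over the wild-type 48 hpf libraries. It had 5, 5 and 13 over the mutant-labelled 48 hpf, mutant-labelled 72 hpf and wild-type 72 hpf groups. In that order si:ch211-195h23.3 had 475 against 64, 67 and 68, and slc10a1 449 against 57, 57 and 79. For such genes genotype cannot be told apart from other differences of those libraries either.

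A second kind of gene was missing from the mutant-labelled 48 hpf libraries and present elsewhere. si:dkey-169i5.4 had 0, 1 and 1 counts in those libraries against 52, 54 and 75 in the wild-type libraries of that age, and at 72 hpf 175 counts over the mutant-labelled and 188 over the wild-type libraries. si:dkey-93m18.6 had 0 counts against 182 at 48 hpf, at least 57.4-fold lower, and 25 against 34 at 72 hpf. In the other direction BX276102.1 had 37, 27 and 23 counts in mutant-labelled libraries and 0 in the wild-type libraries, at least 30.6-fold higher, and 33 against 24 counts at 72 hpf. The map of counts shows the 2 kinds side by side.

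**Figure D4:**
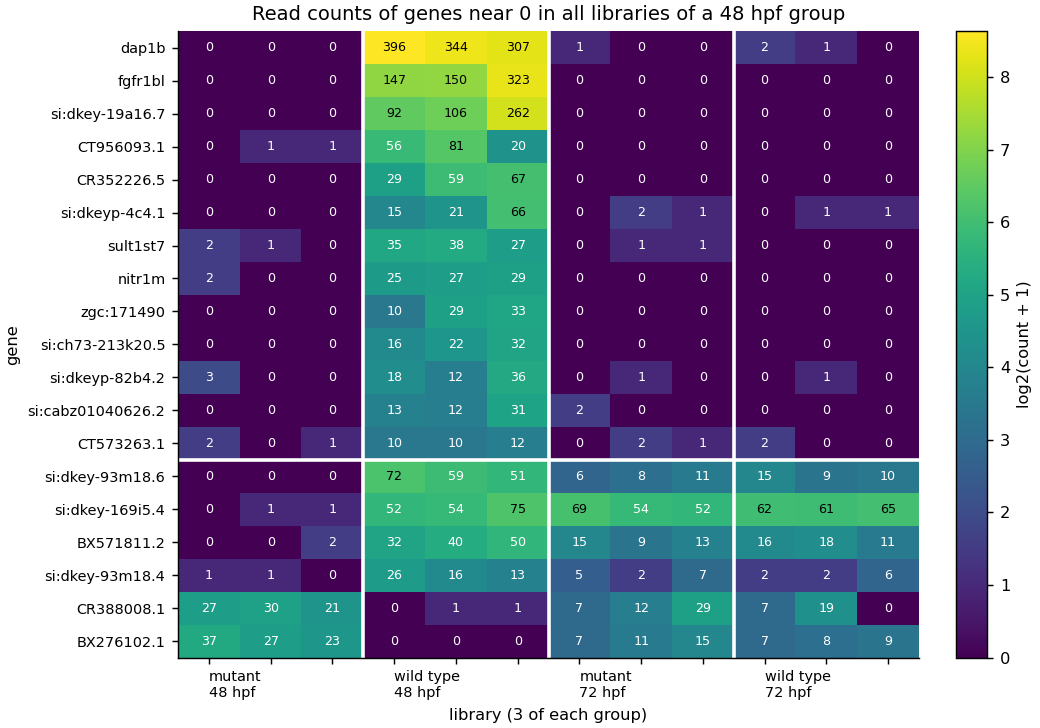
Read counts (numbers, with colour as log2 of the count plus 1) in the 12 libraries, grouped by genotype and age. The genes have at most 3 counts over 1 group at 48 hpf and at least 10 in each library of the other. Of genes that met this rule, only those called at 48 hpf and those held by the wild-type 48 hpf libraries alone are shown. The 13 genes above the white line have counts in the wild-type 48 hpf libraries and next to none in the other 9; those below it are present at 72 hpf in both genotypes.

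The called genes were placed on chromosomes by symbol with the RefSeq gene table of assembly GRCz12tu, which is not the build of the counts, so no positions are given. Of the 74 called genes 55 could be placed, as could 16813 of all tested genes (86.5%). On chromosome 20, which carries mycn, 8 of 716 tested genes (1.12%) were called, against 47 of 16097 (0.292%) on all other chromosomes. Besides mycn they were clu, which was higher, and ppat, slc10a1, cyp2ad3, sccpdhb, tnfaip2a and si:ch211-253p18.2, which were lower. The nearest to mycn were sccpdhb and slc10a1, 104 and 107 genes away in that table's order. Whether genes of this chromosome differ through alleles inherited along with the mutation was not tested. Chromosomes 22 and 13 had shares like it, with 6 of 541 (1.11%) and 6 of 657 (0.913%). On chromosome 22 fgfr1bl and si:ch73-213k20.5 were direct neighbours. Both, and si:dkey-19a16.7 on that chromosome, are among the genes held by the wild-type 48 hpf libraries alone. On chromosome 13 ifi45 and si:dkey-188i13.6 were direct neighbours as well, and ddx21 and si:ch1073-291c23.2 had 1 gene between them.

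Few of the genes called at 48 hpf were called a day later. At 72 hpf an edgeR model of the 6 libraries of that age called 793 of 20182 genes (3.93%), and 437 and 515 without its wild-type replicate 2 and mutant-labelled replicate 3. Of the calls, 9 genes were shared by both ages, 12.2% of the 48 hpf calls and 1.14% of the 72 hpf calls. Of these 9, 6 had the same direction and 3 the opposite one. The 12.2% also counts called genes that were not tested at 72 hpf, so the share of those tested was higher. Of all genes tested at 72 hpf, 3.93% were called. Of the 59 genes lower at 48 hpf 45 were tested at 72 hpf, where their median log2 fold change was -0.10, against -1.37 for the same genes at 48 hpf. Of the 15 higher genes 14 were tested there, with a median of 0.34 against 1.24. Since the genes were chosen for their size at 48 hpf, a smaller median at the other age is a description. A test of the difference between the ages, in a model of all 12 libraries, called 99 of 21068 genes (0.47%), among them 30 of the 59 lower and 5 of the 15 higher genes. These counts and their signs carry the same choice, since the 48 hpf values that chose the genes enter the difference. Of these 35, 32 were also called when each group had its own weight for its spread. The 99 genes became 276 and 264 without wild-type replicates 2 and 3 of 48 hpf, and 54 and 51 without mutant-labelled replicates 1 and 2 of that age. Without mutant-labelled replicates 1, 2 and 3 of 72 hpf there were 43, 37 and 24, and without wild-type replicates 1, 2 and 3 of that age 47, 23 and 37.

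mgst2 showed the contrast between the ages most plainly. It stood at 5.02 ± 0.461 CPM in mutant-labelled and 29.9 ± 2.34 CPM in wild-type libraries at 48 hpf, and averaged 6.49 CPM against 7.42 CPM at 72 hpf (SD, n = 3 each; difference of the log2 fold changes -2.39, SE 0.20, edgeR adjusted p = 5.71e-05). So the high value was that of the wild-type embryos at 48 hpf, and the other 3 groups lay close together. tmem176l.3a had the same form, with averages of 5.02 CPM against 19.6 CPM at 48 hpf and 7.51 CPM against 7.35 CPM at 72 hpf. hbbe1.1, an embryonic globin that declines with age, averaged 1400 CPM against 5521 CPM at 48 hpf and 205.5 CPM against 188.5 CPM at 72 hpf.

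Direction turned for a few genes. cyp2ad3 was lower at 48 hpf and averaged 61.1 CPM in mutant-labelled and 41.6 CPM in wild-type libraries at 72 hpf (log2 fold change 0.55, edgeR adjusted p = 2.18e-04). The difference between the ages was -1.31 on the log2 scale (edgeR adjusted p = 6.87e-04). tnfaip2a and si:ch211-113d11.5 also were lower at 48 hpf and higher at 72 hpf, with differences of -1.30 and -5.03. The 48 hpf call of tnfaip2a (edgeR adjusted p = 0.0498) was kept in 7 of 17 alternatives, and that of si:ch211-113d11.5 was lost without any 1 of the mutant-labelled replicates, in limma-voom and in the robust fit. By contrast mycn, cdnf, gpnmb and adh8b were called in the same direction at both ages, with log2 fold changes at 72 hpf of 0.97, 0.56, -0.64 and -0.77. For these 4 the difference between the ages did not pass (edgeR adjusted p = 0.192, 0.939, 0.493 and 0.711), which does not show that the effects were equal. sccpdhb and CU914776.1 were the other called genes of like direction. ddx21 was lower by 0.27 on the log2 scale at 72 hpf, where it was not called (edgeR adjusted p = 0.0786). Ribosomal protein genes, of which edgeR called 0 at 48 hpf, had similar medians at both ages. The small subunit list stood at -0.345 at 48 hpf and -0.342 at 72 hpf, and the large subunit list at -0.349 and -0.303. At 72 hpf 16 genes of each list were called lower and 0 higher.

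**Figure D5:**
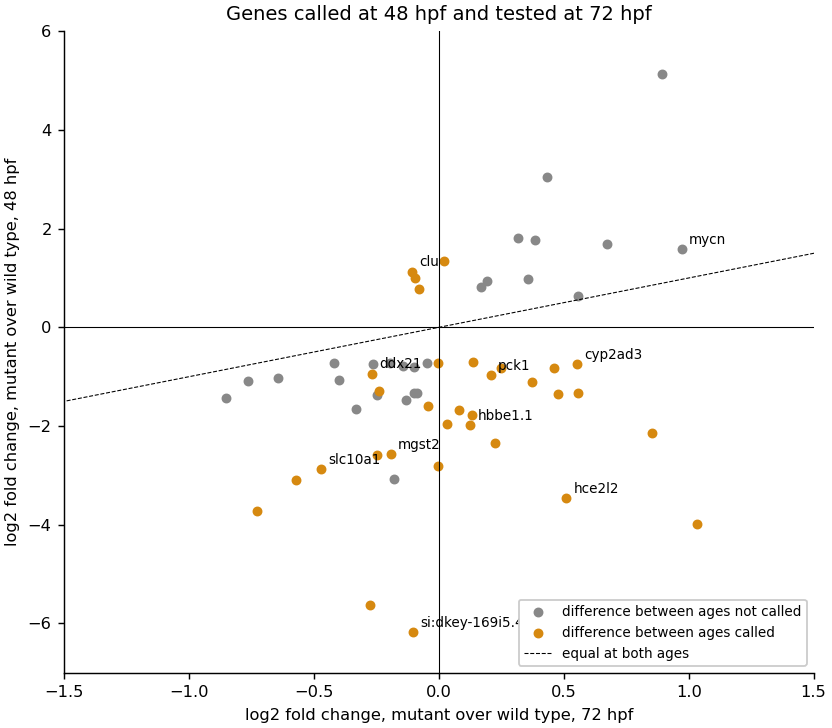
Log2 fold change of mutant-labelled over wild-type libraries at 48 hpf (y axis) against that at 72 hpf (x axis) for called genes tested at both ages. Each age was fitted on its own 6 libraries. Of the 59 such genes, si:dkey-93m18.6, at -8.89 at 48 hpf, lies below the plotted range. Orange marks genes whose difference between the ages was called, 33 with si:dkey-93m18.6 counted. Most lower genes lie near 0 at 72 hpf, between -0.85 and 1.03, well off the dashed line of equal effects.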

How the data were processed

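RNA was measured by sequencing of total RNA from zebrafish embryos, extracted with TRIzol per the labels' protocols. The authors deposited 1 table of read counts, not normalized, for Ensembl genes and their symbols. Per the submitters' processing notes, the tools were STAR, featureCounts and DESeq2 and the build was GRCz11, without versions. Strand setting and annotation release are not stated in those sources, so reads of overlapping, antisense or near-identical genes may be misassigned. Columns were matched to samples by name. No 2 libraries of a group held identical values, and pairs at 48 hpf differed by more than sampling noise (chi-square per degree of freedom 7.79 to 53.2).

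The 6 libraries of 48 hpf were fitted alone with edgeR 4.0.16 in R 4.3.3 (filterByExpr with minimum count 10, TMM factors, glmQLFit and glmQLFTest). Genes were called at a Benjamini-Hochberg adjusted p under 0.05, adjusting over every gene tested. Each SE is the size of the log2 fold change divided by the square root of the test's F statistic. It therefore adds nothing to the fold change and its test. The 72 hpf libraries were fitted in the same way, and the difference between the ages in a model of all 12. Levels are TMM-scaled CPM of the age's own fit, so levels set side by side across ages come from separate scalings. A group with 0 counts was set to 3 counts over the summed size of its 3 libraries. In a single 48 hpf library 3 counts would be 0.152 to 0.191 CPM, so the floor used lies below that range. Floors cover counting error only, since reads are not independent molecules. Alternatives used DESeq2 1.42.0 and limma 3.58.1 (voom), other scalings and filters, and leaving out each library. The steps were tested on simulated counts.

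The comparison, the 50 gene lists and the tests were chosen with earlier results of these data known. Of 2033 listed symbols 1877 were in the table and 1708 were tested. Most tRNA synthetase symbols did not match the table, so that list, with 6 genes, is not described. Named genes follow this rule: mycn; the 15 largest called falls and rises with average log2 CPM of at least 2, groups that do not overlap and no clone or locus name; called genes with 0 counts in a group; up to 3 called members of each list, or its member of smallest p; and, of the called genes, the 6 whose effects differed most clearly between ages by p. Only 7 rises qualified, mycn among them. Not every gene that the rule picks is described above, and krt17, atf6 and tuba1c are among those left out. Other genes were named after their values were seen, such as Myc paralogs, globin copies, tnfaip2a, sccpdhb, CU914776.1 and si:ch211-253p18.2. Promoter and protein sequences were not used here.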

Additional observations from a re-analysis of the deposited data

Results flagged for a closer look

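Of the named genes called at 48 hpf, 21 had a genotype difference that departed from that at 72 hpf. This rests on a test of the difference itself (48 hpf effect minus 72 hpf effect on the log2 scale, edgeR on all 12 libraries, adjusted p under 0.05). The 48 hpf values that chose these 21 genes enter the test. Negative differences, meaning a lower effect at 48 hpf, were found for the detoxification and metabolic genes mgst2 (-2.39), cyp2ad3 (-1.31), selenop2 (-1.91), pck1 (-1.19) and slc10a1 (-2.41). They were found for the membrane, matrix and secreted protein genes tmem176l.3a (-2.01), emilin3a (-1.76), epdl1 (-1.92) and tcirg1a (-1.06). The globin hbbe1.1 (-2.12), the hatching enzyme gene hce2l2 (-3.99), the nucleolar helicase gene ddx21 (-0.68), the phosphatase gene ppm1h (-1.57) and the zinc finger gene znf1156 (-2.35) had them too. Among genes with clone names they were -6.11 for si:dkey-169i5.4, -5.03 for si:ch211-113d11.5 and -8.61 for si:dkey-93m18.6, the last fitted against 0 counts and so no estimate of size.

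Positive differences were found for clu (1.23), plekha7b (1.09), lmf2b (0.84) and BX276102.1 (7.55, also against 0 counts). With a weight for each group's spread in limma-voom, 2 of the 21 missed the threshold, plekha7b and slc10a1 (adjusted p = 0.0733 and 0.0504). Of the 21, cyp2ad3 and si:ch211-113d11.5 were called with opposite signs at the ages. si:ch211-113d11.5 stood at 5.77, 4.11 and 3.26 CPM in mutant-labelled and 76.1, 19.6 and 112.5 CPM in wild-type libraries at 48 hpf, so its wild-type replicates varied over a wide range. Outside the 21, the named genes mmp9 (1.58), hmgcra (1.41) and f10 (-1.38) passed the same edgeR test without a call at 48 hpf (adjusted p = 0.0159, 0.0154 and 0.0155). mmp9 was called lower at 72 hpf (log2 fold change -0.56, edgeR adjusted p = 0.0325).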

How the results depend on the processing

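All 74 called genes kept their direction in the 17 alternatives of the 48 hpf comparison that tested them. The groups of all 74 stood apart in the main fit. The alternatives reuse the same 48 hpf libraries, so a change of direction was hardly possible and the kept directions are no further evidence. In each of these 9 kept their call: dap1b, fgfr1bl, si:dkey-19a16.7, si:dkey-22i16.9, si:dkey-169i5.4, mgst2, tmem176l.3a, znf1156 and mycn. Of them dap1b, fgfr1bl and si:dkey-19a16.7 are among the 13 genes held by the wild-type 48 hpf libraries alone. si:dkey-22i16.9, mgst2, tmem176l.3a and znf1156 were also highest in those libraries. A kept call does not tell genotype apart from other differences of those libraries. No named gene or count reversed.

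The count of calls, with higher and lower genes, was 321 (73 and 248) in DESeq2, 217 (61 and 156) in limma-voom with a weight per library, 641 (219 and 422) in edgeR on all 12 libraries and 214 (57 and 157) in limma-voom on all 12 with a weight per group. It was 203 (42 and 161) with no filter and 27 (5 and 22) above an average log2 CPM of 2, where 49 of the 74 were tested. limma-voom called 58 genes, 9 of them higher, and edgeR's robust fit called 111, 91 of them lower. With library totals alone 66 passed, 20 higher and 46 lower. Leaving out single libraries gave 16 to 254 calls, 2 to 65 higher and 14 to 189 lower. Of the 38 named called genes, 29 lost their call without some library. The losses named gene by gene leave out the replicate block and the filter on average log2 CPM. With the block 13 of the 74 genes kept their call, and with the filter 27 of the 49 tested. Why the mutant-labelled and wild-type omissions act so unequally was not tested.

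Replicate numbers did not pair the 48 hpf samples (correlations of same-numbered deviations 0.002, -0.185 and -0.306), and with the replicate block 14 genes passed, 2 higher and 12 lower. At 72 hpf the count ran from 437 to 684 as single libraries were left out. For the difference between ages it was 253 in DESeq2, 17 with the replicate block and 23 to 276 without single libraries. List medians moved by more than their spread in 36 of 600 alternatives. Promoter motifs were not run.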
